A study of Homo sapiens with 36 samples.

Results

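The genes described here are 10 amino acid transporters, chosen by name from the 61587 genes of a count table of RNA sequencing: SLC3A2, SLC7A5, SLC43A1, SLC7A1, SLC7A3, SLC1A5, SLC1A4, SLC38A1, SLC38A2 and SLC6A9. Their mRNA was measured in HEK 293T cells, an established human embryonic kidney line, from a single-cell clone whose TXNL1 gene was disrupted by CRISPR (knockout, KO). All 4 lines compared carry this KO. They were complemented by lentivirus, under a CMV promoter, with an empty vector, with wild-type (WT) TXNL1, with D162R R234D TXNL1, which does not bind proteasomes, or with SxxS TXNL1, whose thioredoxin cysteines are mutated. Each line was left untreated (labelled DMSO) or exposed for 6 h to an oxidant. The oxidant was either arsenite at 100 µM or hydrogen peroxide (H2O2) at 600 µM. There were 3 replicates per group, 12 groups and 36 libraries. The replicates are triplicate treatments of 1 clone-derived line each, so the p-values measure the spread between these samples, which may be technical. No parental cells with intact TXNL1 are among the libraries, so lines are compared with each other in a KO background. Each construct is in 1 line, so an effect of the construct cannot be told apart from other differences between the lines.

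Amino acid transporters of the solute carrier families set how fast cells take up leucine, glutamine, serine, glycine, arginine and their relatives, and many of them exchange one amino acid for another across the plasma membrane. Several are heterodimers: the heavy chain SLC3A2 (CD98) carries a light chain such as SLC7A5 to the cell surface. In many cell types ATF4, a transcription factor whose translation rises under amino acid shortage and other stresses, raises the transcription of genes for amino acid synthesis and uptake, in part through elements with the core TGATGNAA.

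Total counts ran from 42072410 to 174119002 per library, with a median of 66016833. TXNL1 mRNA itself was at 28.6 to 31.7 CPM (a share of the counts of its library, on scaled library sizes) in the 3 untreated vector libraries and at 51.7 to 66.2 CPM in the 9 untreated complemented ones; mRNA left in a KO line does not say whether protein is made. Of markers that HEK 293T cells carry, VIM (445 to 515 CPM) and INA (17.5 to 22.2 CPM) were present in untreated cells, while PAX2 and NEFM were near 0, at up to 0.43 and 0.21 CPM. PTPRC, ALB and CDH5, which mark leukocytes, hepatocytes and endothelium, reached at most 0.15 CPM, and the fibroblast collagens COL1A1 and COL3A1 were detected at 12.4 to 19.8 and 12.7 to 17.4 CPM. WT arsenite replicate 1 and WT H2O2 replicate 2 stood apart from the other replicates of their groups, with a spread of log2 differences of 0.50 to 0.57 against 0.069 to 0.17 in the other 34 libraries. These 2 libraries had 174119002 and 107763112 counts, and the averaged responses of the transporters are also given without both of them.

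Of the 10 transporters, 9 had enough counts to be tested and had counts in all 36 libraries. The exception was SLC7A3 (chrX:70925579-70931125, GRCh38), a cationic amino acid transporter best known from brain, which had 34 counts over all libraries, none in untreated vector cells and at most 6 in any library. It was at 0 in 24 libraries, which at their depths allows up to 0.0196 to 0.0718 CPM, for counting error only and with each count taken as independent. If mates were counted singly, which is not known here, this limit is too low. Its relative SLC7A1 (chr13:29509414-29595688), the widely expressed carrier of arginine and lysine, was at 161 to 201 CPM in untreated cells.

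Per kilobase of exon (RPKM), the untreated levels fell into 3 tiers. The length used is that of all annotated exons of a gene joined, which can exceed the mRNA made. The order of genes therefore depends on it. SLC1A5 (chr19:46774883-46788594), a sodium-dependent exchanger of glutamine and other neutral amino acids, had a median of 152 RPKM over the 12 untreated libraries (141 to 170). SLC7A5 (chr16:87830023-87869507), the light chain that exchanges leucine and other large neutral amino acids, had a median of 75.2 RPKM (71.9 to 81.9). The ranges of these 2 genes did not overlap with each other or with any other member. In the middle lay SLC38A2 (median 28.7 RPKM), SLC3A2 (26.1), SLC7A1 (24.8) and SLC38A1 (21.5), where each gene overlapped with its neighbour in that order. SLC38A1 (chr12:46183063-46270017) and SLC38A2 (chr12:46358188-46372773) are neighbouring genes for sodium-coupled carriers of glutamine and other small neutral amino acids. At the bottom were SLC43A1 (chr11:57484534-57515780), a facilitative carrier of large neutral amino acids, at 3.26 RPKM, SLC6A9 (chr1:43991500-44031467), the glycine transporter GLYT1, at 1.11 RPKM, and SLC1A4 (chr2:64988477-65023865), an exchanger of serine, alanine and cysteine, at 0.66 RPKM. The ranges of these 3 did not overlap with each other.

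**Figure D1:**
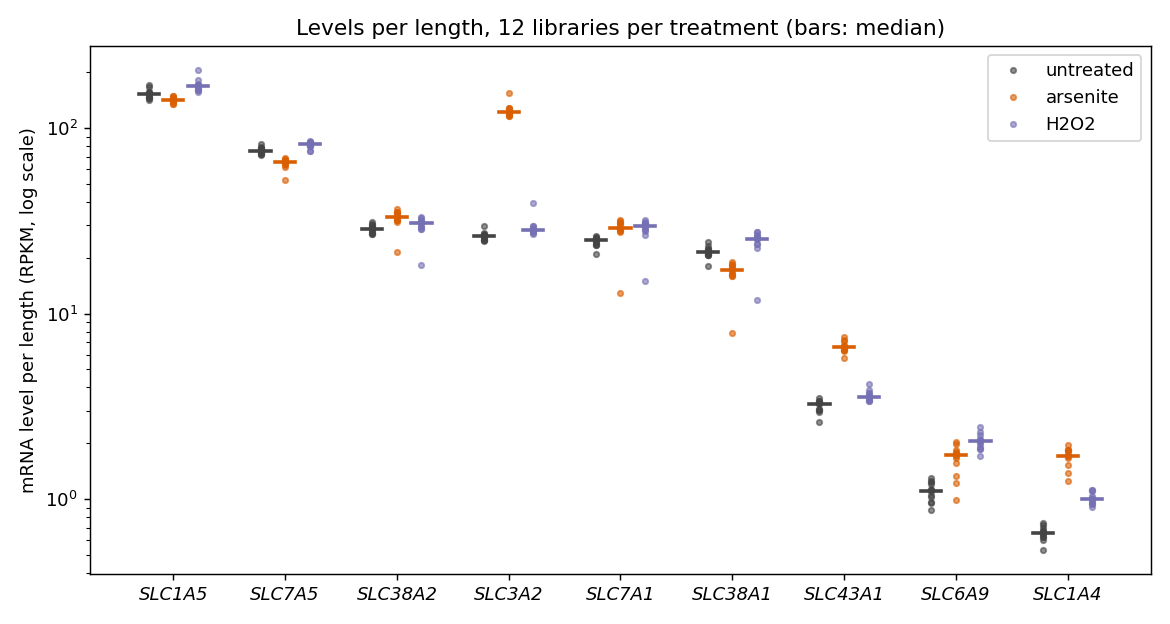
Level per length of the 9 tested transporters (RPKM, log axis) in the 12 libraries of each treatment, with a bar at the median and genes ordered by their untreated median. SLC3A2 moves from a median of 26.1 to 122 RPKM with arsenite, below the median of SLC1A5, while SLC7A5 moves from 71.9 to 81.9 down to 52.4 to 69.0 RPKM.

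After arsenite the order changed in a single large step: SLC3A2 (chr11:62856004-62888880) reached a median of 122 RPKM, above SLC7A5 (65.8) and below SLC1A5 (141). It overlapped with SLC1A5 through the outlying WT library alone: without it SLC3A2 was at 116 to 129 RPKM and SLC1A5 at 136 to 149 RPKM. In CPM, which uses no length, the order of these 2 was the reverse, with medians of 780 for SLC3A2 and 470 for SLC1A5. SLC6A9 and SLC1A4 came to lie together at 1.72 RPKM each, with overlapping ranges. After H2O2 the order was the untreated one, except that SLC7A1 (29.5 RPKM) and SLC3A2 (28.1) changed places with overlapping ranges.

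The promoter sequences were searched for TGATGNAA, the element core named above, in the 250 bases before and 50 bases after each start in RefSeq (GRCh38.p14), on both strands. No other motif was searched. Windows were found for 9 of the 10 genes, not for SLC7A3, and 5 of these 9 (55.6%) held the motif, in 5 of 16 windows (31.2%). Over all 35116 windows the share was 3.62%, and over all 27305 genes 4.46%, or 7.95% of genes with 3 windows, as SLC3A2 and SLC1A5 have. The transporters were listed with their names known, so this share is a description of them. The 5 windows are shown, 30 bases each and 5′ to 3′ on the gene's own strand, because they let the responses below be read against the presence of this motif, which is in capitals (as TTNCATCA where it lies on the opposite strand).
SLC3A2 (chr11:62881719-62881748, + strand): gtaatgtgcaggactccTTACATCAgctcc
SLC1A4 (chr2:64989381-64989410, + strand): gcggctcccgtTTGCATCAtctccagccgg
SLC7A1 (chr13:29595663-29595692, - strand): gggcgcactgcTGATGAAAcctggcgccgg
SLC38A1 (chr12:46266502-46266531, - strand): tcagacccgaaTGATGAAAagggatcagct
SLC1A5 (chr19:46784893-46784922, - strand): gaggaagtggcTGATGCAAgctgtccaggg

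Counted from the start base of its own window, the first base of the motif stands at 37 in SLC3A2, at -7 in SLC1A4, at 7 in SLC7A1, at -4 in SLC38A1 and at -97 in SLC1A5. SLC3A2 and SLC1A5 have 3 windows each, SLC1A4 and SLC38A1 2 each, and their other windows did not hold the motif. The starts of the windows shown for these 4 genes lie inside the annotated gene span. Counts per gene do not say which start was used. The windows of SLC7A5, SLC38A2, SLC6A9 and SLC43A1 did not hold these letters.

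Arsenite against untreated cells asks how the metalloid changes transcript levels. With the response averaged over the 4 lines, 5 of the 9 tested transporters rose (SLC3A2, SLC1A4, SLC43A1, SLC6A9 and SLC38A2), 3 fell (SLC38A1, SLC7A5 and SLC1A5) and SLC7A1 did not pass the test. Over all 22486 genes tested 37.4% were called higher and 31.5% lower, so the 8 calls are read against a table in which most genes passed. How many of all genes had oxidant libraries that did not overlap with the untreated ones was not counted. A lack of overlap, where given below, thus describes a gene and is not particular to the members. SLC36A1, SLC7A2 and SLC7A7, which are not members, showed it with arsenite too. The median log2 fold change was 0.20 over the 9 transporters and 0.06 over all genes. CPM are shares of a library, so a change in a transcript per cell and a change in the amount of the other mRNA per cell cannot be told apart.

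The heavy chain SLC3A2 had the largest change of the set. Its lowest, median and highest level over 12 libraries was 158, 167 and 191 CPM in untreated cells and 744, 780 and 984 CPM after arsenite. Every arsenite library thus lay above every untreated one, a rise of 2.25 ± 0.046 on the log2 scale (SE, 4.75-fold, adjusted p = 1.8e-26, edgeR quasi-likelihood test as for the tests below). In vector cells SLC3A2 was at 160, 164 and 169 CPM untreated and at 819, 766 and 779 CPM after arsenite. In WT cells it was at 160, 169 and 169 CPM untreated and at 984, 744 and 751 CPM after arsenite, the first of these being the outlying library. The other 2 were near the low end of the 9 libraries of the other lines, and 744 CPM was the lowest of all 12. In D162R R234D cells it went from 160, 174 and 191 to 780, 813 and 823 CPM, and in SxxS cells from 158, 165 and 172 to 746, 783 and 773 CPM. The log2 fold changes of the 4 lines were 2.20 to 2.32, and the averaged rise was 2.19 without both outlying libraries.

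SLC1A4 and SLC43A1, both of low abundance, also rose in every line without overlap between the groups. SLC1A4 was at 3.71 to 5.14 CPM (median 4.57) untreated and at 8.70 to 13.6 CPM (median 11.9) after arsenite, an averaged log2 fold change of 1.35 ± 0.046 (2.56-fold, adjusted p = 4.5e-21). Its 3 WT libraries after arsenite, at 8.70, 10.6 and 9.60 CPM, were the lowest of the 12. The rise was 1.13 in WT cells and 1.32, 1.49 and 1.48 on the log2 scale in vector, D162R R234D and SxxS cells. SLC43A1 was at 9.22 to 12.4 CPM (median 11.5) untreated and at 20.3 to 26.4 CPM (median 23.2) after arsenite, an averaged log2 fold change of 1.07 ± 0.041 (2.09-fold, adjusted p = 8.9e-20). Within the lines it was 0.93 to 1.12. Without both outlying libraries the averaged rises were 1.35 for SLC1A4 and 1.02 for SLC43A1.

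SLC6A9 and SLC38A2 rose by less and with overlap. SLC6A9 was at 4.58 to 6.84 CPM (median 5.83) untreated and at 5.17 to 10.6 CPM (median 9.04) after arsenite, with 10 of 12 arsenite libraries above the highest untreated one (0.55 ± 0.058, adjusted p = 1.6e-09, and 0.55 without both outlying libraries). SLC6A9 shares 413 exon bases with CCDC24 on the other strand, which was at 1.30 to 2.41 CPM (median 1.55) untreated and at 3.13 to 4.88 CPM (median 3.48) after arsenite. With the use of strand in the counting not given, its part in this rise was not tested. In WT cells SLC6A9 was at 5.09, 4.58 and 5.39 CPM untreated and 5.17, 6.97 and 6.38 CPM after arsenite, and the WT call (0.28, adjusted p = 0.044) was lost in 10 of the 15 alternatives tried (adjusted p 0.0042 to 0.24). SLC38A2 was at 175 to 202 CPM (median 187) untreated and at 140 to 239 CPM (median 217) after arsenite, where 11 libraries lay above all untreated ones and WT replicate 1 below all of them. Its averaged rise of 0.18 ± 0.069 (adjusted p = 0.019) did not pass with total counts as the scale (adjusted p = 0.11), without a filter on low counts (0.066) or without D162R R234D untreated replicate 3 (0.053), in a range of 2.2e-08 to 0.11 over 33 alternatives, and was 0.21 without both outlying libraries.

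SLC7A5 and SLC38A1 fell. SLC7A5 was at 343 to 390 CPM (median 358) untreated and at 250 to 329 CPM (median 313) after arsenite, so that the partner of SLC3A2 was lower in all 12 arsenite libraries than in any untreated one (-0.23 ± 0.033, adjusted p = 3.9e-07, and -0.23 without both outlying libraries). In vector cells it was at 347, 347 and 353 CPM untreated and at 329, 316 and 295 CPM after arsenite, which did not overlap but did not pass the test in this line (-0.16, adjusted p = 0.057). In WT cells the values were 368, 356 and 354 against 250, 325 and 301 CPM, and this fall, like those of -0.27 in D162R R234D and -0.21 in SxxS cells, passed it. SLC7A5 has transcribed copies that could share its reads, and SLC7A5P1 was at 0.35 to 0.80 CPM untreated and 2.15 to 5.87 CPM after arsenite, SLC7A5P2 at 0.26 to 0.69 and 0.71 to 2.66 CPM. SLC7A5 also shares 271 exon bases with a non-coding RNA on the other strand, ENSG00000260466. This RNA was at 9.88 to 11.5 CPM untreated and at 4.49 to 9.83 CPM after arsenite. The part of the copies and of this RNA in the level of SLC7A5 was not tested.

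SLC38A1 was at 181 to 244 CPM (median 215) untreated and at 78.7 to 191 CPM (median 172) after arsenite, of which 8 libraries lay below all untreated ones (-0.39 ± 0.098, adjusted p = 0.00089). The lowest value, 78.7 CPM, was WT arsenite replicate 1, and without both outlying libraries the fall was -0.34. SLC1A5 was at 471 to 566 CPM (median 507) untreated and at 452 to 499 CPM (median 470) after arsenite, a fall of -0.11 ± 0.031 (adjusted p = 0.0032) with 7 of 12 libraries below all untreated ones, and of -0.14 without both outlying libraries. Its exons share 780 bases with an antisense RNA, ENSG00000275719. This RNA was at 125 to 148 CPM (median 139) untreated and at 72.1 to 131 CPM (median 124) after arsenite. The use of strand in the counting is not given in the sources used here, so the reads of these 2 genes cannot be told apart. SLC7A1 was at 161 to 201 CPM (median 191) untreated and at 99.2 to 246 CPM (median 224) after arsenite. All but the outlying WT library were above every untreated one (0.20 ± 0.097, adjusted p = 0.074), and without the 2 outlying libraries the rise passed (0.25, adjusted p = 7.3e-10, at 73.7% of genes called).

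**Figure D2:**
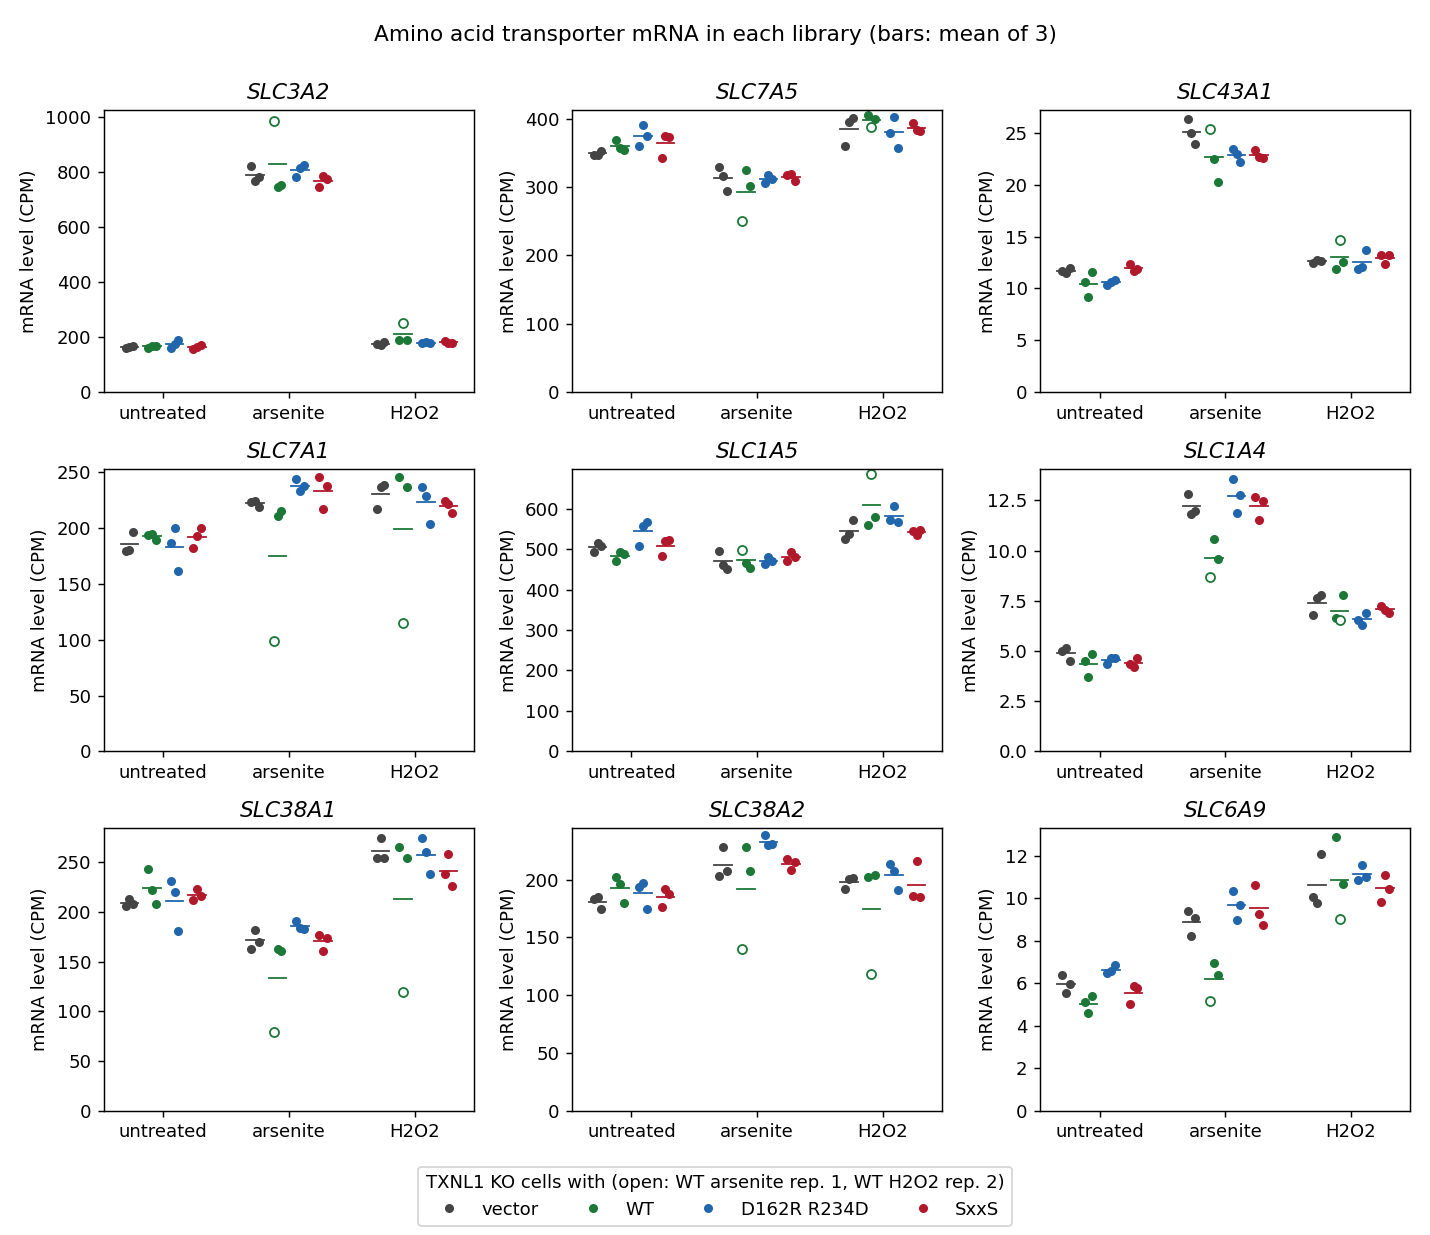
mRNA level (CPM, linear axes from 0) of the 9 tested transporters in every library, by treatment, with the 4 lines in colour, bars at the mean of 3 and open circles for WT arsenite replicate 1 and WT H2O2 replicate 2. SLC3A2, SLC1A4 and SLC43A1 lie higher in all 12 arsenite libraries and SLC7A5 lower, and the open circles lie lowest of their group for SLC7A1, SLC38A1 and SLC38A2.

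The 2 outlying WT libraries departed from their companions in the same way, although they had been given different oxidants. In each, SLC7A1, SLC38A1, SLC38A2, SLC6A9, SLC1A4 and SLC7A5 were below both other replicates, and SLC3A2, SLC1A5 and SLC43A1 above both. For SLC7A1 the log2 ratio to the mean of the other 2 replicates was -1.10 in the arsenite library and -1.07 in the H2O2 library, for SLC38A1 -1.04 and -1.12, and for SLC38A2 -0.64 and -0.78. For SLC3A2 it was 0.40 and 0.41. The SE of SLC7A1, SLC38A1 and SLC38A2, at 0.069 to 0.098 for an averaged response against 0.031 to 0.058 for the other 6, was also the largest.

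The same comparison for H2O2 gave no fall, and the largest change was that of SLC6A9. SLC6A9, SLC1A4, SLC43A1, SLC1A5 and SLC3A2 were higher averaged over the lines, 5 of 9 tested transporters, where 6.78% of all genes were called higher and 5.3% lower. The median log2 fold change was 0.17 for the transporters and 0.005 for all genes. Without the 2 outlying WT libraries all 9 were called higher, where 28.6% of all genes were called in either direction.

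SLC6A9 responded most to H2O2. Its level over 12 libraries was 9.01 to 12.9 CPM (median 10.8) against 4.58 to 6.84 CPM untreated, a rise in every library of 0.90 ± 0.058 (1.87-fold, adjusted p = 4.2e-12). In vector cells it went from 6.37, 5.53 and 5.98 to 10.0, 9.79 and 12.1 CPM and in WT cells from 5.09, 4.58 and 5.39 to 12.9, 9.01 and 10.7 CPM. In D162R R234D cells it went from 6.48, 6.58 and 6.84 to 10.9 to 11.6 CPM, and in SxxS cells from 5.02, 5.87 and 5.78 to 9.83, 11.1 and 10.5 CPM. No group overlapped with its untreated control, and the averaged rise was 0.93 without both outlying libraries. CCDC24, which overlaps SLC6A9, was at 1.34 to 2.75 CPM after H2O2 against 1.30 to 2.41 CPM untreated.

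SLC1A4 also rose in all 12 libraries, to 6.32 to 7.81 CPM (median 6.91), by 0.63 ± 0.046 (1.54-fold, adjusted p = 8.8e-11), and passed the test within each line. Its averaged rise was 0.63 without both outlying libraries as well. The other 3 calls were small. SLC43A1 was at 11.9 to 14.7 CPM (0.19 ± 0.041, adjusted p = 0.0014), SLC1A5 at 524 to 687 CPM (0.16 ± 0.031, adjusted p = 0.00068) and SLC3A2 at 172 to 253 CPM (0.15 ± 0.044, adjusted p = 0.021). All 3 overlapped with the untreated libraries, and for all 3 the highest value was the outlying WT library. Without both outlying libraries the log2 fold changes were 0.16, 0.13 and 0.11, in the same order, and each passed. The antisense RNA that overlaps SLC1A5 had a median of 139 CPM untreated and 148 CPM after H2O2 (109 to 167). Its part in the rise of SLC1A5 was not tested.

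The remaining 4 did not pass. The log2 fold changes were 0.21 ± 0.097 for SLC7A1 (adjusted p = 0.17), 0.17 ± 0.098 for SLC38A1 (0.31), 0.10 ± 0.033 for SLC7A5 (0.054) and 0.05 ± 0.069 for SLC38A2 (0.76). Of their 12 H2O2 libraries, 11, 8, 6 and 4 lay above the highest untreated one. Without the 2 outlying libraries they were 0.28 (adjusted p = 1.9e-09), 0.24 (3.1e-06), 0.10 (0.00089) and 0.10 (0.0093).

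**Figure D3:**
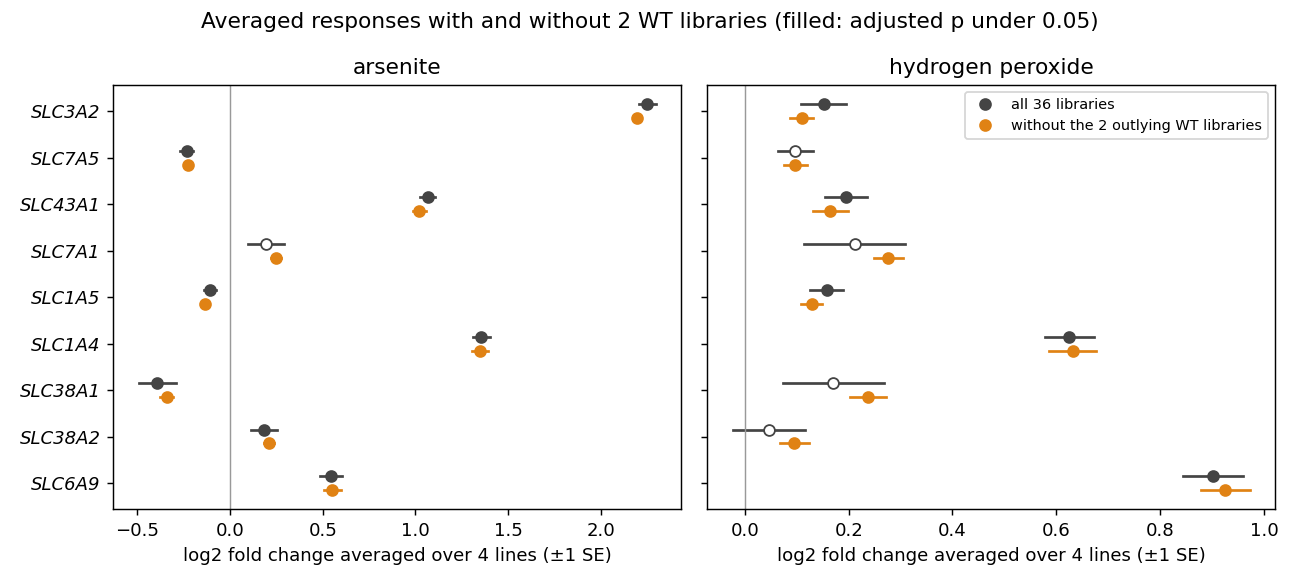
Log2 fold change averaged over the 4 lines, with 1 SE to each side, for arsenite (left) and H2O2 (right), from all 36 libraries and without the 2 outlying WT libraries. Filled points passed an adjusted p of 0.05, and the 4 open H2O2 points (SLC7A5, SLC7A1, SLC38A1 and SLC38A2) and the open arsenite point (SLC7A1) are filled without these libraries.

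Set directly against each other, the oxidants differed in 7 of the 9 transporters. SLC3A2 (2.10 ± 0.046), SLC43A1 (0.87 ± 0.041) and SLC1A4 (0.73 ± 0.045) were higher on the log2 scale after arsenite than after H2O2, 3 genes where 37.3% of all genes were called higher. SLC38A1 (-0.56 ± 0.098), SLC6A9 (-0.36 ± 0.057), SLC7A5 (-0.33 ± 0.033) and SLC1A5 (-0.26 ± 0.031) were lower, 4 genes where 31.3% of all genes were. The adjusted p-values of these 7 were at most 1.0e-05. SLC6A9, which rose with each oxidant, had its higher level after H2O2, unlike SLC3A2, SLC43A1 and SLC1A4. When both outlying libraries were left out 8 passed, in a fit whose share of all genes called is not given here. SLC3A2 was then at 2.08, SLC43A1 at 0.86, SLC1A4 at 0.72 and SLC38A2 at 0.12 (adjusted p = 0.00048). SLC38A1 was at -0.58, SLC6A9 at -0.37, SLC7A5 at -0.32 and SLC1A5 at -0.26. With all libraries SLC38A2 (0.14, 95% interval -0.00 to 0.28, adjusted p = 0.075) and SLC7A1 (-0.02, -0.21 to 0.18, adjusted p = 0.90) did not pass. Doses of the 2 oxidants are not matched in strength, so this compares 100 µM of the one with 600 µM of the other.

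With SLC3A2 higher and SLC7A5 lower, their ratio per length changed in every line. SLC7A5 per SLC3A2 was 2.64 to 3.09 (median 2.91) in the 12 untreated libraries, 0.34 to 0.59 (median 0.54) after arsenite and 2.06 to 3.08 (median 2.86) after H2O2. The lowest value of both oxidants was the outlying WT library, and without them arsenite gave 0.51 to 0.59 and H2O2 2.70 to 3.08. Summed over 6 light chains that can pair with SLC3A2 (SLC7A5, SLC7A6, SLC7A7, SLC7A8, SLC7A10 and SLC7A11), light chain per heavy chain mRNA went from 3.01 to 3.60 untreated to 0.40 to 0.69 after arsenite, or 0.60 to 0.69 without the outlying library. SLC7A5 held 86.2% of this sum untreated, 84.5% after arsenite and 85.6% after H2O2, and SLC7A11, the cystine and glutamate exchanger, held 1.82%, 3.79% and 3.16%. These are ratios of mRNA per length of all annotated exons, so their size depends on the lengths used and is no count of chains. The relative change of SLC7A5 per SLC3A2 between treatments does not depend on the lengths. Protein was not measured here.

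**Figure D4:**
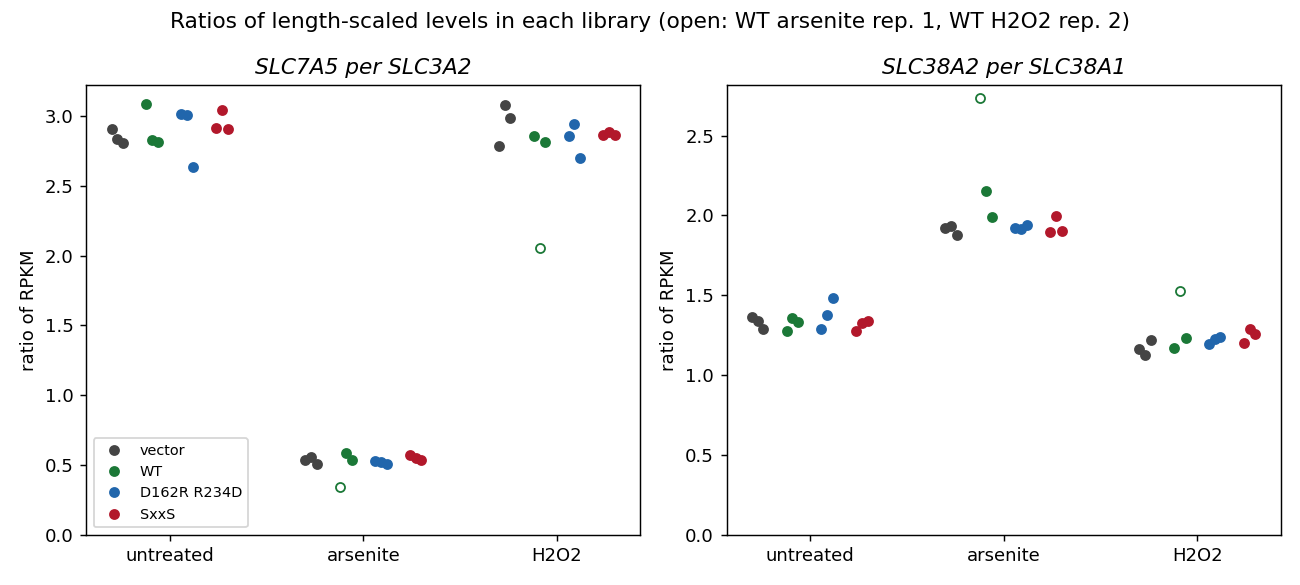
Ratio of RPKM of SLC7A5 to SLC3A2 (left) and of SLC38A2 to SLC38A1 (right) in each library, axes from 0, with the lines in colour and open circles for the 2 outlying WT libraries. SLC7A5 per SLC3A2 drops from 2.64 to 3.09 to below 0.59 with arsenite, and SLC38A2 per SLC38A1 rises from 1.28 to 1.48 to 1.88 to 2.74.

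The paralogue pairs also shifted. SLC38A2 per SLC38A1 was 1.28 to 1.48 (median 1.33) untreated, 1.88 to 2.74 (median 1.93) after arsenite and 1.13 to 1.53 after H2O2, so that the arsenite libraries lay apart from all others. Both highest values were the outlying libraries, without which arsenite gave 1.88 to 2.15 and H2O2 1.13 to 1.29. SLC1A4 per SLC1A5 was 0.0036 to 0.0049 untreated, 0.0084 to 0.0140 after arsenite and 0.0046 to 0.0068 after H2O2. Without the outlying libraries, which were the lowest with each oxidant, the ranges were 0.0102 to 0.0140 and 0.0050 to 0.0068, both above every untreated library. SLC1A4 mRNA remained a minor part of this pair throughout.

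Comparing the lines asks whether transporter expression differs between lines that carry different TXNL1 constructs. In untreated cells none of the 9 transporters was called between WT, D162R R234D or SxxS cells and vector cells (edgeR), and none had an unadjusted p under 0.05. DESeq2 also called 0. Of all genes 0.196%, 0.0267% and 0.0178% were called in these 3 comparisons. The 27 log2 differences lay between -0.24 and 0.15, and their 95% intervals between -0.49 and 0.50. The one with the smallest adjusted p was SLC6A9 in WT cells, at 5.09, 4.58 and 5.39 against 6.37, 5.53 and 5.98 CPM in vector cells (-0.24, adjusted p = 0.72 over all genes).

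Within the single lines, arsenite changed SLC3A2, SLC1A4, SLC43A1 and SLC6A9 (in WT cells lost in 10 of 15 alternatives) upward in each of the 4. In vector cells these were the 4 called, where 22.1% of all genes were called higher and 21.4% lower. Without both outlying libraries 9 were called in vector and 9 in SxxS cells, where 56.4% and 57.0% of all genes were called in either direction. In WT cells 4 rose and SLC7A5 and SLC38A1 fell (background 28.7% and 24.9%), in D162R R234D cells 4 rose and SLC7A5 and SLC1A5 fell (22.5% and 21.5%), and in SxxS cells 4 rose and SLC7A5 fell (22.1% and 21.5%). With H2O2, SLC1A4 and SLC6A9 rose in each line and none fell. They were the 2 called in vector (background 0.712% higher and 0.636% lower), D162R R234D (0.503% and 0.525%) and SxxS cells (0.409% and 0.609%). When the edgeR fit held just the compared WT groups, the calls of SLC1A4 (adjusted p = 0.44) and SLC6A9 (0.31) were lost. In WT cells SLC3A2, SLC1A5 and SLC43A1 were called as well (5.8% and 2.26%), and without the outlying library of that group SLC3A2 (0.20, adjusted p = 0.19) and SLC43A1 (0.22, adjusted p = 0.18) did not pass. Without both outlying libraries SLC3A2 passed (0.19, adjusted p = 0.0068) and SLC43A1 did not (0.21, adjusted p = 0.073), and H2O2 gave 5 calls in vector and 5 in D162R R234D cells, where 9.87% and 10.4% of all genes were called.

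**Figure D5:**
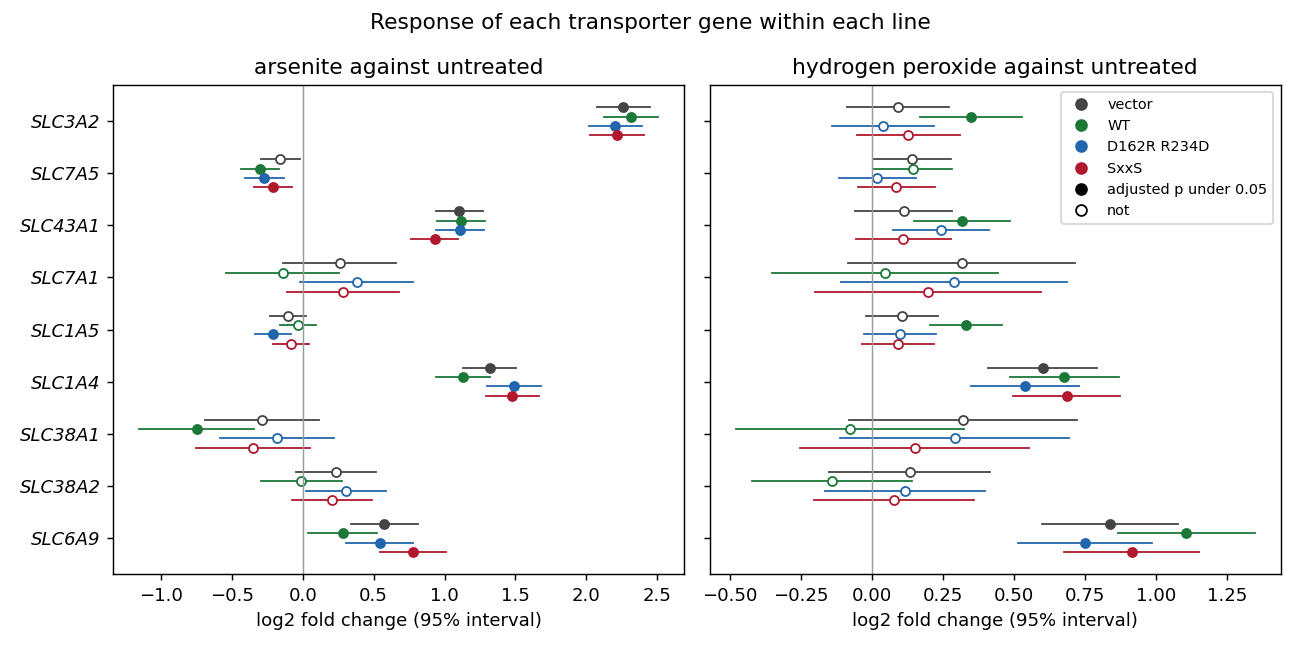
Log2 fold change with its 95% interval for each transporter within each line, for arsenite (left) and H2O2 (right, on its own scale), filled where the adjusted p was under 0.05. SLC3A2, SLC1A4, SLC43A1 and SLC6A9 are filled in all 4 lines with arsenite, and SLC1A4 and SLC6A9 in all 4 with H2O2.

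A call in one line and not in another is not a difference between lines, which was tested as the interaction of line and oxidant. No transporter passed it (edgeR, and 0 with DESeq2). For arsenite 0% of all genes passed, and SLC1A4 (adjusted p = 0.75) and SLC6A9 (adjusted p = 0.78) were the 2 members with an unadjusted p under 0.05. For H2O2 0.685% of all genes passed, and SLC1A5 (adjusted p = 0.46) was the 1 member under 0.05. The response of a complemented line minus that of vector cells lay between -0.46 and 0.20 for arsenite and between -0.40 and 0.27 for H2O2 on the log2 scale. Their 95% intervals spanned -1.03 to 0.68 and -0.97 to 0.61, and the lowest bounds were those of SLC38A1 and SLC7A1 in WT cells, where the outlying libraries lie. Without both of these libraries the transporters with the smallest adjusted p were SLC38A1 for arsenite (0.42, where 0.205% of all genes passed) and SLC6A9 for H2O2 (0.26, where 1.51% passed).

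Of 33 other amino acid transporters, listed by family but with earlier results of these data known, 21 could be tested. Averaged over the lines, arsenite raised 9 and lowered 7 of them (median log2 fold change -0.01, against 0.06 over all genes), where 37.4% and 31.5% of all genes were called, and H2O2 raised 2 and lowered 1 (median -0.03, against 0.005), where 6.78% and 5.3% were. The counts without both outlying libraries were 9 and 9 with arsenite and 3 and 1 with H2O2. In that fit 73.7% and 28.6% of all genes were called in either direction with arsenite and H2O2. Those past a log2 fold change of 1 with arsenite were SLC36A1, a proton-coupled carrier of lysosomes (24.4 to 31.4 CPM untreated and at most 14.9 CPM after arsenite, -1.07 ± 0.083, adjusted p = 1.8e-12), SLC7A2, a cationic carrier (53.0 to 69.1 and 17.1 to 34.9 CPM, -1.03 ± 0.10, adjusted p = 3.1e-10), and SLC7A7, a light chain of low level (0.42 to 0.77 and 0.81 to 1.77 CPM, 1.10 ± 0.11, adjusted p = 6.9e-10). Their arsenite libraries did not overlap with the untreated ones, and without both outlying libraries the log2 fold changes were -1.02, -0.98 and 1.07. SLC7A2 thus fell where SLC7A1, also a cationic carrier, was not called with all libraries and rose without both outlying ones, as given above. The difference between these genes was not tested.

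SLC7A11 had the largest change of these other transporters with H2O2, and rose with either oxidant. It was at 10.7 to 19.1 CPM (median 15.8) untreated, at 13.7 to 34.2 CPM (median 29.0) after arsenite (0.84 ± 0.12, adjusted p = 3.9e-07) and at 13.5 to 39.2 CPM (median 29.6) after H2O2 (0.91 ± 0.12, adjusted p = 3.0e-06). The lowest value after each oxidant was again the outlying WT library, at 13.7 and 13.5 CPM, and the other 11 lay above every untreated one. The difference between the oxidants was -0.07 ± 0.12 (95% interval -0.31 to 0.17, adjusted p = 0.60). With both outlying libraries left out SLC7A11 rose by 0.87 with arsenite and 0.99 with H2O2, a difference of -0.11 (adjusted p = 0.14).

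Also listed with earlier results of these data known were 7 genes of the amino acid and integrated stress response. All 7 rose with arsenite and 6 with H2O2, where 37.4% and 6.78% of all genes were called higher. The counts were the same without both outlying libraries, where 73.7% and 28.6% of all genes were called in either direction. SESN2, a stress-induced inhibitor of growth signalling, was at 50.6 to 58.3 CPM untreated, 499 to 607 CPM after arsenite (3.41 ± 0.028, adjusted p = 2.2e-36) and 66.7 to 82.1 CPM after H2O2 (0.46 ± 0.025, adjusted p = 1.4e-13). The log2 fold changes with arsenite and H2O2 were 2.51 and 0.17 for DDIT3 (CHOP), a transcription factor of the same response, of which the second did not pass (adjusted p = 0.29). They were 2.50 and 0.36 for DDIT4, 2.32 and 0.92 for CHAC1, which degrades glutathione, and 1.19 and 0.23 for TRIB3. ASNS, which makes asparagine, rose by 0.85 and 0.27, and ATF4 mRNA by 0.40 and 0.46. ATF4 mRNA is not a measure of its translation. Each oxidant is compared with the same 12 untreated libraries, so these 2 sets of values are not independent.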

How the data were processed

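RNA was isolated after triplicate treatments in six-well plates, and mRNA libraries (strand-specific, per the labels) were sequenced as paired-end reads. The authors aligned them to the GRCh38 primary assembly with qAlign (QuasR) and deposited raw read counts per gene, neither normalized nor pooled, with an exon length per gene. The annotation, the use of strand, and whether mates were counted singly are not given in the sources used here. Groups and replicate numbers come from the sample titles, doses and exposure from the study's methods.

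The 10 members, the other gene lists, the motif and the alternatives were chosen with earlier results of these data known. Members were matched by Ensembl identifier to GENCODE release 44, where all 10 had the deposited length. All 10 members and the listed genes were named whatever their values, except that other transporters were named past a log2 fold change of 1 (arsenite) or 0.5 (H2O2).

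Of 42726 genes with a count, 22486 were tested, those whose 3 untreated vector libraries summed to 10 counts or more (the filter of the study), with edgeR 4.0.16 in R 4.3.3: TMM scaling, 1 mean for each of 12 groups, robust quasi-likelihood fit, Benjamini-Hochberg adjustment over all tested genes and calls at an adjusted p under 0.05. CPM and RPKM were computed from the deposited counts and lengths on TMM-scaled library sizes. Alternatives used DESeq2 1.42.0 (its size factors or its test), total counts as the scale, edgeR's expression filter or none, halved counts, a replicate block, only the groups compared, and libraries left out. No library was a duplicate: between replicates, chi-square per degree of freedom was at least 3.31. Only 6 of 24 correlations between same-numbered samples were over 0.1 (-0.37 to 0.42). Of these, 3 were between untreated and H2O2-treated D162R R234D cells, the single comparison where every pair was (0.36, 0.15 and 0.36). The numbers may pair samples in that comparison, but the tests given treat them as unpaired. The replicate block is 1 effect per replicate number, shared by all 12 groups. It left the 2 calls of that comparison as they were, but does not pair its samples alone. A test paired within that comparison was not run. The code was tested on simulated data.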

Additional observations from a re-analysis of the deposited data

How the results depend on the processing

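Over the log2 fold changes of the members and all their alternatives, 2283 of 2376 stayed on their side of the threshold, 26 lost the call and 66 gained it. The sign changed in 29, spread over 13 of the fold changes, of which 28 were called neither before nor after. The exception was SLC38A2 after arsenite in WT cells, at -0.01 with all libraries and 0.15 (adjusted p = 0.037) without both outlying WT libraries. Without those 2 libraries the transporters called with H2O2 averaged over lines went from 5 to 9, with arsenite from 4 to 9 in vector and from 5 to 9 in SxxS cells, and with H2O2 from 2 to 5 in vector and in D162R R234D cells. When the fit held just the compared groups, arsenite gave 9 in vector, 3 in WT and 9 in SxxS cells, and H2O2 gave 6 in vector, 0 in WT and 5 in SxxS cells. The share of all genes called also differed between fits. It is not given here for the fits of just the compared groups or for single libraries left out. The counts from those fits are therefore not read as particular to the transporters. The cause of the shifts in the counts was not tested. Leaving out each library in turn gave 5 to 8 for H2O2 averaged over lines and 3 to 5 for H2O2 in WT cells, the extremes of 8 and 3 without WT H2O2 replicate 2. The replicate block gave the same counts as the fit without it in every comparison (8 for arsenite and 5 for H2O2 averaged over lines). In D162R R234D cells with H2O2, the comparison in which all 3 same-numbered pairs correlated, its value was 2, with the same direction for all 9. The block is shared by all groups, so it is no check of a pairing within that comparison. Sequencing depth did not limit the detection of the 9 tested transporters, each with 156 counts or more in every library. SLC1A4 and SLC6A9, with as few as 156 and 193 counts, carry more counting error than the others. Its part in their spread was not tested. SLC7A3 was at or near 0 at these depths.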
